A study of Mus musculus with 16 samples.

Results

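Mast cell proteases, receptors and the enzyme of histamine synthesis were followed in the aorta of mice with and without kidney reduction. The group held 8 genes, Cma1, Mcpt4, Tpsb2, Cpa3, Kit, Ms4a2, Fcer1a and Hdc, out of 54532 genes in the count table. They were picked by gene name because mast cell genes were seen to be higher after nephrectomy in these same libraries, so their levels against Sham are given as a description with no test. The comparisons of diets among the nephrectomized mice were not used for that choice and were tested.

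Aortas came from C57BL/6J mice, 1 poly-A RNA library per mouse and 4 mice per group. Surgery to remove 5/6 of the kidney mass (5/6 Nx) began at 12 weeks of age, and the diets began after 2 weeks of recovery and were fed for 30 days by the labels. Sham and 5/6 Nx-HPi-Lp animals ate the same high-phosphorus, low-protein chow (2% phosphorus, 2.5% protein) and differed by surgery alone. The 5/6 Nx-HPi-Hp mice received 2% phosphorus with 18% protein, and the 5/6 Nx-LPi-Lp mice received 0.3% phosphorus with 2.5% protein, so both differed from Sham by surgery and diet. The aorta was extracted whole, and RNA of the vessel wall and of attached tissue was not separated.

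Mast cells are resident immune cells that sit in connective tissue, around vessels and in the adventitia. They mature in the tissue under stem cell factor acting on the KIT receptor, and they store proteases, heparin and histamine in granules. Antigen that cross-links IgE on the high-affinity IgE receptor makes them release these stores, and chymases can cut angiotensin I, endothelin precursors and matrix proteins in the vessel wall.

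The genes lie at 7 places in the mouse genome, given here in the mm10 build as the count table has them. Cma1 and Mcpt4 are neighbors on the minus strand of chromosome 14, at chr14:55941451-55944675 and chr14:56059629-56062313. Tpsb2 lies at chr17:25366550-25368094 on the plus strand and Kit at chr5:75574916-75656722 on the plus strand. The minus strand carries Cpa3 at chr3:20215620-20242181, Ms4a2 at chr19:11615523-11623719, Fcer1a at chr1:173221284-173227214 and Hdc at chr2:126593667-126619299. Counts were made over the exons of each gene.

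The 250 bases before the start of 5 of these genes are shown, from the RefSeq promoter table of GRCm38.p6. These 5 are the genes whose window held the letters marked below. Kit and Hdc, whose windows held none, are not shown, and any link of the letters to the levels of the genes was not tested. All 5 windows are written 5′ to 3′ on the minus strand, and capitals mark each GATAA, the core of the site that GATA factors bind, or TTATC, the same letters on the other strand. The windows are Cma1 at chr14:55944676-55944925, Mcpt4 at chr14:56062311-56062560, Cpa3 at chr3:20242182-20242431, Ms4a2 at chr19:11623720-11623969 and Fcer1a at chr1:173227230-173227479.
Cma1: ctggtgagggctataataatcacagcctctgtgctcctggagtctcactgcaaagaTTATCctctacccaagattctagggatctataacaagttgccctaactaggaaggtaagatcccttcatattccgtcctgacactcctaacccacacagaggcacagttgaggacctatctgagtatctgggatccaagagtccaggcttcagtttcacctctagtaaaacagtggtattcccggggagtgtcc
Mcpt4: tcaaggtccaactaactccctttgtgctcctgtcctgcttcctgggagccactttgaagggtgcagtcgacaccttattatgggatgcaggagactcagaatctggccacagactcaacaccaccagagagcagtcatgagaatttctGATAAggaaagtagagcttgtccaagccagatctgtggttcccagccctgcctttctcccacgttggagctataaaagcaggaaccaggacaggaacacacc
Cpa3: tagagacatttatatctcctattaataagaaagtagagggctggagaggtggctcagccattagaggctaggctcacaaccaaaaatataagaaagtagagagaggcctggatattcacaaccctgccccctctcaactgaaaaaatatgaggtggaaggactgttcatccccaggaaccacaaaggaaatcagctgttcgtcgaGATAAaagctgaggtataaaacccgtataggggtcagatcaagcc
Ms4a2: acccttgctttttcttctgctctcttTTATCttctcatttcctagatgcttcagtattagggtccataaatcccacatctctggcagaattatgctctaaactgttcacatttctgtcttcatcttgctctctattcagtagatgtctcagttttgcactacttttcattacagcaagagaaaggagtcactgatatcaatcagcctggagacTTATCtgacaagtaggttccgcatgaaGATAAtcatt
Fcer1a: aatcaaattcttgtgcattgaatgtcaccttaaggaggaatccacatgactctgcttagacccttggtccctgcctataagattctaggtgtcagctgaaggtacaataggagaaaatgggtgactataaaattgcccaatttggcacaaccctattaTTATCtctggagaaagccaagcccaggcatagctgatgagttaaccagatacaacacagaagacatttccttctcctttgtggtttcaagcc

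Of the 8 genes, 7 had an entry in the promoter table, all but Tpsb2, and 5 of the 7 held GATAA on either strand. The same letters stood in 22.6% of the 32851 promoters of that length. Ms4a2 held 3 matches, Cma1, Mcpt4, Cpa3 and Fcer1a held 1 each, and Kit and Hdc held none in this window. The E-box letters CANNTG, whose N is any base, were found in 4 of the 7 against 66.2% of all promoters, and TATAAA in 3 of the 7 (Mcpt4, Cpa3 and Fcer1a) against 12.4%. These matches describe the letters alone, and binding of a factor was not measured.

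Library totals ranged from 13659525 to 57276915 counts, with 20795568 to 24204348 in Sham. Mitochondrially encoded genes took 4.18% to 6.34% of the counts in Sham, 19.3% to 27.1% in 5/6 Nx-HPi-Lp, 9.5% to 29% in 5/6 Nx-HPi-Hp and 14.2% to 21.1% in 5/6 Nx-LPi-Lp mice. Smooth muscle markers summed to 20200 to 24300 CPM (read counts scaled to the library total after TMM normalization) in Sham and to 1790 to 4120 CPM in 5/6 Nx-HPi-Lp. In bulk aorta, fewer cells of a type and less RNA per cell cannot be told apart.

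Cma1 encodes mouse mast cell protease 5, a granule serine protease that is the nearest mouse relative of human chymase by sequence. In Sham replicates 1 to 4 it measured 0.539, 3.15, 5.68 and 2.1 CPM, and in 5/6 Nx-HPi-Lp replicates 1 to 4 it measured 36.4, 44.6, 41.9 and 50.1 CPM. In 5/6 Nx-HPi-Hp mice it measured 83.8, 30.1, 12.5 and 20.3 CPM, and in 5/6 Nx-LPi-Lp mice 17.5, 35.7, 19.8 and 7 CPM. Every nephrectomized aorta stood above the highest Sham aorta, and the 5/6 Nx-HPi-Lp aortas lay close together where the other nephrectomy groups were spread. The fitted fold against Sham was 15.8 in 5/6 Nx-HPi-Lp, 7.51 in 5/6 Nx-LPi-Lp and 13.6 in 5/6 Nx-HPi-Hp.

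Mcpt4 encodes the chymase mouse mast cell protease 4 of connective tissue mast cells, which cleaves after aromatic residues. Sham aortas held 1.66, 5.03, 11.9 and 3.48 CPM and 5/6 Nx-HPi-Lp aortas 26.2, 36.2, 40.1 and 40.5 CPM. In 5/6 Nx-HPi-Hp the values were 139, 63.7, 25.3 and 31.3 CPM, and in 5/6 Nx-LPi-Lp they were 25.9, 64.9, 41.4 and 12.3 CPM. Again no nephrectomized aorta fell within the Sham range, although 5/6 Nx-LPi-Lp replicate 4 at 12.3 CPM was next to Sham replicate 3 at 11.9 CPM. The fitted folds against Sham were 6.79, 12.5 and 7.06 in the order HPi-Lp, HPi-Hp and LPi-Lp. On the log2 scale their SE were 0.48, 0.68 and 0.63, so the order of these folds is not settled.

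Tpsb2 encodes the tryptase beta chain stored with heparin in the granule. Its Sham values were 1.43, 3.89, 8.03 and 2.65 CPM, against 56.9, 40.2, 52.1 and 48.5 CPM in 5/6 Nx-HPi-Lp. The 5/6 Nx-HPi-Hp aortas measured 98.1, 35.4, 15.4 and 24.6 CPM and the 5/6 Nx-LPi-Lp aortas 22.2, 38.6, 24.9 and 8.9 CPM. Its lowest nephrectomized aorta, 5/6 Nx-LPi-Lp replicate 4, was just above the highest Sham aorta. The fitted folds against Sham were 12.9, 11.5 and 6.35 in the order HPi-Lp, HPi-Hp and LPi-Lp.

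Cpa3 encodes mast cell carboxypeptidase A, which trims the peptides that the chymases release. Sham aortas measured 1.16, 2.36, 5.86 and 1.66 CPM and 5/6 Nx-HPi-Lp aortas 18.6, 15.3, 21.4 and 18.1 CPM. The 5/6 Nx-HPi-Hp values were 55.1, 31, 6.15 and 15.4 CPM, and the 5/6 Nx-LPi-Lp values were 13.9, 27, 19.4 and 6.28 CPM. The nephrectomized aortas of 5/6 Nx-HPi-Hp replicate 3 and 5/6 Nx-LPi-Lp replicate 4 lay barely above Sham replicate 3. The fitted folds against Sham were 6.95, 10.3 and 6.48 in the same order.

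Per length, in FPKM (fragments scaled by transcript length and library size), the chymases and the tryptase were the most abundant of the 8 genes after nephrectomy. Tpsb2 led in 5/6 Nx-HPi-Lp with a mean of 46.4 FPKM, ahead of Cma1 at 40.2, Mcpt4 at 32.7 and Cpa3 at 12.3 FPKM. In the other nephrectomy groups Mcpt4 led instead, with 58.9 FPKM in 5/6 Nx-HPi-Hp and 33.1 FPKM in 5/6 Nx-LPi-Lp. The 4 protease genes summed to 12.6 ± 9.54 FPKM in Sham, 132 ± 8.13 in 5/6 Nx-HPi-Lp, 151 ± 124 in 5/6 Nx-HPi-Hp and 85 ± 48.9 in 5/6 Nx-LPi-Lp aortas (mean ± SD, n = 4 each). The sums of single aortas ran from 124 to 140 FPKM in 5/6 Nx-HPi-Lp and from 54.7 to 327 FPKM in 5/6 Nx-HPi-Hp, so the group means of the latter do not order the diets.

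Kit encodes the receptor for stem cell factor, which other cells of the tissue can also carry. It was the exception among the 8 genes. Sham aortas measured 15.7, 18.7, 14.2 and 17.6 CPM and 5/6 Nx-HPi-Lp aortas 15.9, 11.3, 13.6 and 16.8 CPM. The 5/6 Nx-HPi-Hp values were 22.8, 10.6, 11.5 and 18.4 CPM and the 5/6 Nx-LPi-Lp values 40.8, 16, 28 and 19.8 CPM. Each nephrectomy group overlapped Sham, and the fitted folds were 0.899, 1 and 1.68 in the order HPi-Lp, HPi-Hp and LPi-Lp. Its mean of 1.78 FPKM in Sham was next to that of Cpa3, 1.74 FPKM, and the order of these neighbors is within their spread. After nephrectomy Cpa3 was at 11.1 to 17.8 FPKM and Kit at 1.64 to 2.98 FPKM. Ano1 and Etv1, listed for interstitial cells of Cajal (Kit-bearing pacemaker cells), summed to 57.3 to 102 CPM in 5/6 Nx-HPi-Lp and 129 to 185 CPM in Sham. Most of this was Ano1, with means of 69.3 and 143 CPM. Smooth muscle markers fell in the same contrast, and whether the aortas held cells of Cajal was not tested. Melanocyte markers summed to 1.42 to 2.87 CPM in 5/6 Nx-HPi-Lp and 1.98 to 3.08 CPM in Sham. The part of either list in the level of Kit was not tested.

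Ms4a2 and Fcer1a encode the beta chain and the IgE-binding alpha chain of the high-affinity IgE receptor. Both were close to the limit of detection in Sham. Ms4a2 had 1, 5, 4 and 0 counts in Sham replicates 1 to 4, which is 0.0385, 0.219, 0.18 and 0 CPM, against 1.83, 1.61, 1.52 and 1.35 CPM in 5/6 Nx-HPi-Lp. It measured 2.85, 0.898, 1.35 and 0.273 CPM in 5/6 Nx-HPi-Hp and 0.704, 1.95, 0.437 and 0.286 CPM in 5/6 Nx-LPi-Lp aortas. All 12 nephrectomized aortas were above the Sham range for Ms4a2. The fitted folds of 14.8, 12.8 and 8.07 rest on a Sham level of 10 counts in all.

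Fcer1a had 0, 3, 4 and 7 counts in Sham, or 0, 0.131, 0.18 and 0.277 CPM. It measured 6.56, 2.86, 6.67 and 8.06 CPM in 5/6 Nx-HPi-Lp aortas, 5, 1.47, 0.6 and 0.875 CPM in 5/6 Nx-HPi-Hp aortas and 1.41, 3.77, 2.84 and 0.428 CPM in 5/6 Nx-LPi-Lp aortas. The groups did not overlap Sham, and the 5/6 Nx-HPi-Lp aortas were mostly the highest. The fitted folds against Sham were 41.5, 13.9 and 14.7 in the order HPi-Lp, HPi-Hp and LPi-Lp, again from few Sham reads.

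Hdc encodes histidine decarboxylase, which makes histamine from histidine. Sham aortas measured 0.771, 0.568, 1.62 and 0.988 CPM and 5/6 Nx-HPi-Lp aortas 13.6, 8.29, 20.2 and 13.1 CPM. The 5/6 Nx-HPi-Hp aortas measured 8.71, 6.12, 9 and 2.41 CPM and the 5/6 Nx-LPi-Lp aortas 3.9, 8.1, 4.22 and 1.62 CPM. All 5/6 Nx-HPi-Lp and 5/6 Nx-HPi-Hp aortas stood above Sham, while 5/6 Nx-LPi-Lp replicate 4 met the highest Sham aorta. The fitted folds were 14.5, 6.99 and 4.81.

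**Figure D1:**
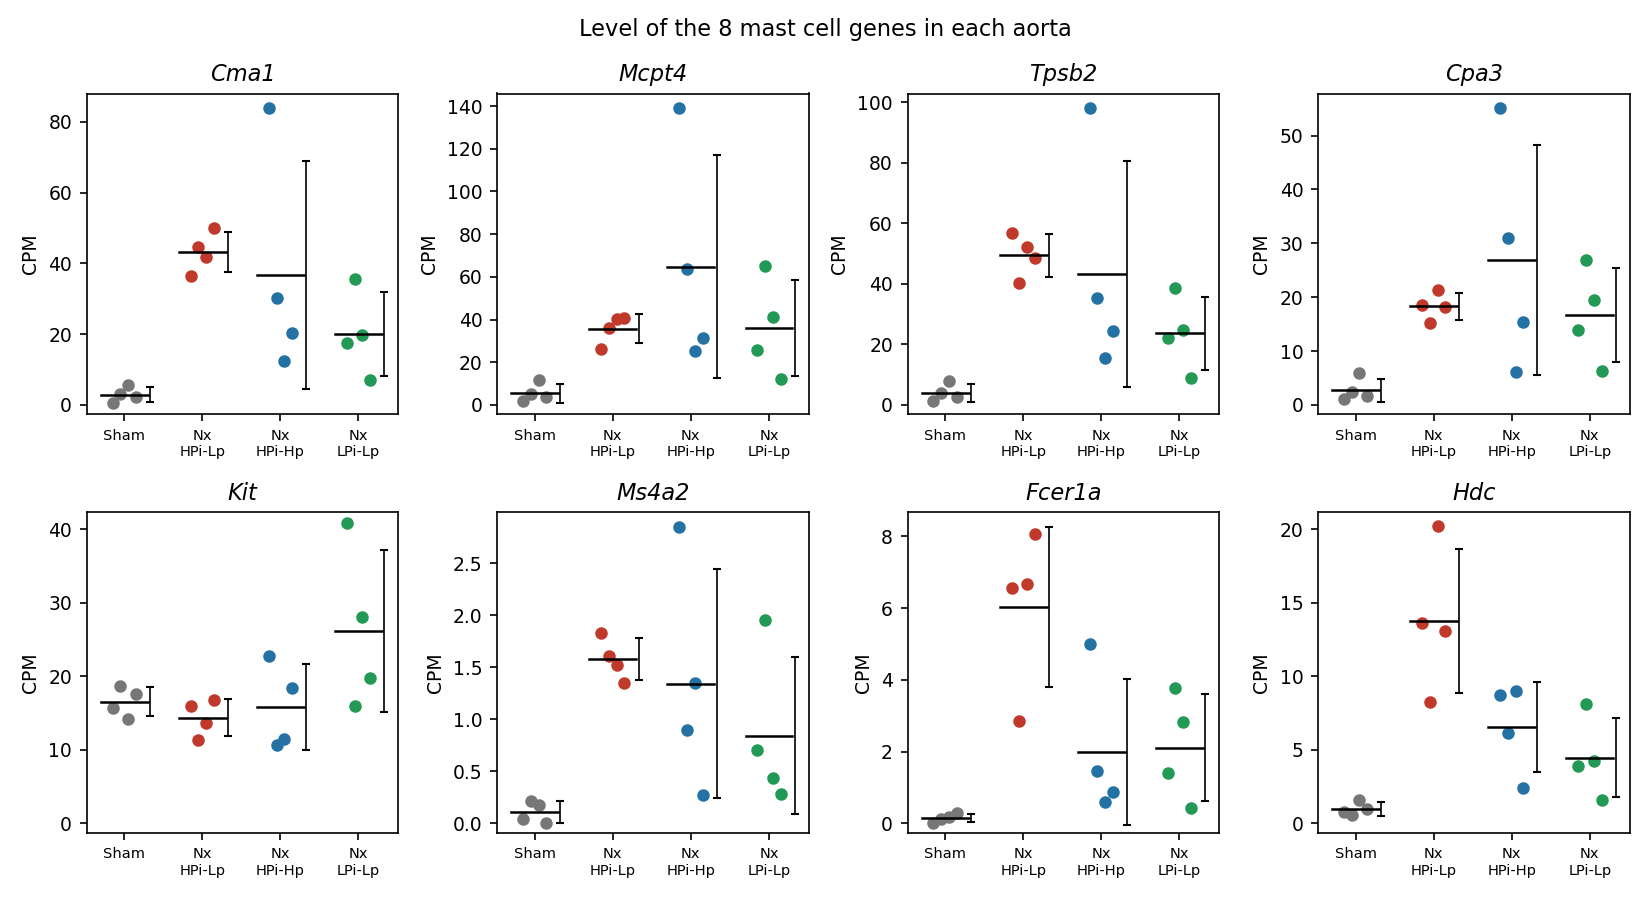
Level of each of the 8 genes in CPM (y axis, from 0, a scale of its own per gene) in the 4 groups (x axis), with 1 point per aorta, a line at the group mean and a bar of ± SD (n = 4) to its right. Cma1, Mcpt4, Tpsb2, Cpa3, Ms4a2 and Fcer1a show no nephrectomized aorta within the Sham range, Hdc only at 5/6 Nx-LPi-Lp replicate 4, and Kit overlaps throughout.

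Of the 8 genes, 7 in 5/6 Nx-HPi-Lp, 7 in 5/6 Nx-HPi-Hp and 6 in 5/6 Nx-LPi-Lp were higher than Sham in every aorta, beside 18.8%, 13.9% and 13.6% of all genes tested. The choice of the genes used this contrast, so nothing is read from these counts. By edgeR, 15%, 9.41% and 8.79% of all genes were called higher than Sham, a call being an adjusted p up to 0.05 with an absolute log2 fold change from 1. The median log2 fold change of the 8 genes was 3.77, 3.58 and 2.76, against medians over all genes near 0. Without 5/6 Nx-HPi-Hp replicate 1 the median in that group was 2.74, and without Sham replicate 3 the median in 5/6 Nx-LPi-Lp was 3.35. All 8 genes passed the filter on low counts against Sham in 5/6 Nx-HPi-Lp, 7 in 5/6 Nx-HPi-Hp (Ms4a2 did not) and 6 in 5/6 Nx-LPi-Lp (Ms4a2 and Fcer1a did not). The 3 nephrectomy groups share the Sham aortas.

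Markers of several other cell types moved along the same contrast by edgeR. The 6 adipocyte markers, Adipoq, Plin1, Cfd, Lep, Cidec and Lipe, summed to 306 to 814 CPM in Sham, 2920 to 8260 CPM in 5/6 Nx-HPi-Lp, 848 to 8180 CPM in 5/6 Nx-HPi-Hp and 1400 to 4030 CPM in 5/6 Nx-LPi-Lp. Of them, 5, 6 and 6 rose against Sham in the same order. Sympathetic neuron markers rose in 4 of 4, 3 of 3 and 2 of 2 tested, Schwann cell markers in 4, 4 and 3 of 4, and brown adipocyte markers in 2, 3 and 4 of 4, with 1 lower in 5/6 Nx-HPi-Hp. Macrophage markers rose in 6, 1 and 0 of 6, neutrophil markers in 4 of 4, 0 of 2 and 0 of 2 tested, and smooth muscle markers fell in 5, 1 and 1 of 5. Thymocyte and T cell markers fell in 3, 0 and 0 of 4 tested. Among them, mean Rag1 was 6.76 CPM in Sham and 0.159 CPM in 5/6 Nx-HPi-Lp. Their part in the levels of the mast cell genes was not tested.

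The first diet comparison set 5/6 Nx-HPi-Lp against 5/6 Nx-HPi-Hp mice, which differed by protein content at the same phosphorus. None of the 8 genes was called, where 8.12% of 16198 genes were. By edgeR, 2 of the 8 had an unadjusted p under 0.05, against 30.9% of all genes, and none was free of overlap between the groups, against 20.4%. Hdc, at a mean of 13.8 ± 4.9 against 6.56 ± 3.06 CPM (SD, n = 4 each), had a log2 fold change of 1.07 (95% interval 0.15 to 1.99, edgeR adjusted p = 0.113). Fcer1a, at 6.04 ± 2.23 against 1.99 ± 2.04 CPM, had a log2 fold change of 1.60 (95% interval 0.17 to 3.02, edgeR adjusted p = 0.125). For both genes 5/6 Nx-HPi-Hp aortas reached into the 5/6 Nx-HPi-Lp range. Without 5/6 Nx-HPi-Hp replicate 1, the aorta with the highest protease levels of all, Fcer1a was called with a log2 fold change of 2.61 (edgeR adjusted p = 0.0236).

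The proteases did not pass the test in that comparison, and their signs were mixed. The log2 fold change was 0.25 for Cma1 (95% interval -0.81 to 1.31), 0.20 for Tpsb2 (-0.84 to 1.24), -0.55 for Cpa3 (-1.68 to 0.59) and -0.85 for Mcpt4 (-1.88 to 0.18). Without 5/6 Nx-HPi-Hp replicate 1 these values were 1.04 for Cma1, 0.97 for Tpsb2, 0.0577 for Cpa3 and -0.18 for Mcpt4, and none passed. With all 8 aortas their edgeR adjusted p ranged from 0.241 for Mcpt4 to 0.804 for Tpsb2. Kit, at 14.4 ± 2.48 against 15.8 ± 5.82 CPM, had a log2 fold change of -0.13 (-0.71 to 0.45). Intervals this wide hold folds of more than 2 for each of the 4 proteases, so the aortas do not show that protein left these genes alike.

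The second comparison set 5/6 Nx-HPi-Lp against 5/6 Nx-LPi-Lp mice, which differed by phosphorus at the same low protein. Hdc rose in 5/6 Nx-HPi-Lp, by 3.1 times (log2 fold change 1.63, SE 0.45, edgeR adjusted p = 0.0327), and it was the only one of the 8 genes called, where 11.9% of 16253 genes were. An unadjusted p under 0.05 was found for 5 of the 8 and for 35.7% of all genes. Its lowest 5/6 Nx-HPi-Lp aorta, at 8.29 CPM, stood just above its highest 5/6 Nx-LPi-Lp aorta, at 8.1 CPM. The call was kept in 13 of 19 alternatives, with log2 fold changes of 0.90 to 2.07 and adjusted p of 0.00179 to 0.0844. Leaving out 5/6 Nx-HPi-Lp replicate 3 (adjusted p = 0.0796), 5/6 Nx-HPi-Lp replicate 4 (0.071), 5/6 Nx-LPi-Lp replicate 1 (0.0786) or 5/6 Nx-LPi-Lp replicate 3 (0.0844) ended it, as did limma on log2(FPKM + 1), where the log2 fold change of 0.90 missed the limit of 1 at an adjusted p of 0.0302. With a block on the replicate number the adjusted p was 0.0653. In the same comparison 4 of 4 neutrophil markers tested, from a list of 5, and 6 of 6 macrophage markers also rose. Only 1 of the 5 neutrophil markers passed the count filter between the other 2 nephrectomy groups. Most were thus tested here through their 5/6 Nx-HPi-Lp levels. The untested marker, Ly6g, had 0 counts in 5/6 Nx-HPi-Lp. The cells that made Hdc were not identified, and the part of neutrophils and macrophages in its level was not tested.

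Cma1 and Tpsb2 also did not overlap between these groups, and 12.6% of all genes were likewise higher in every 5/6 Nx-HPi-Lp aorta. Cma1 measured 43.2 ± 5.72 against 20 ± 11.9 CPM (log2 fold change 1.12, 95% interval 0.25 to 1.99, edgeR adjusted p = 0.0694). Tpsb2 measured 49.4 ± 7.04 against 23.6 ± 12.2 CPM (log2 fold change 1.07, 95% interval 0.27 to 1.86, edgeR adjusted p = 0.0613). Fcer1a had a log2 fold change of 1.52 (0.18 to 2.85, edgeR adjusted p = 0.0992), with 1 overlapping aorta on the 5/6 Nx-LPi-Lp side. Kit had the opposite sign, -0.87 (-1.50 to -0.24, edgeR adjusted p = 0.0565). None of these passed. DESeq2 called Cma1, Tpsb2 and Fcer1a beside Hdc (adjusted p = 0.0172, 0.0139 and 0.0337), and edgeR without 5/6 Nx-LPi-Lp replicate 2 called Cma1, Tpsb2 and Kit beside Hdc (adjusted p = 0.0201, 0.0272 and 0.0295).

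Mcpt4 and Cpa3, by contrast, sat near 0 in the same comparison. Mcpt4 measured 35.7 ± 6.67 against 36.1 ± 22.5 CPM (log2 fold change -0.01, 95% interval -0.94 to 0.92, edgeR adjusted p = 0.989). Cpa3 measured 18.4 ± 2.47 against 16.6 ± 8.74 CPM (0.14, -0.67 to 0.96, edgeR adjusted p = 0.809). The intervals reach folds of nearly 2 in either direction for Mcpt4, and the sign of Mcpt4 turned with total-count scaling and with 1 of several aortas left out. Ms4a2 had a log2 fold change of 0.91 (-0.43 to 2.25).

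The last pair, 5/6 Nx-HPi-Hp against 5/6 Nx-LPi-Lp, differed in both nutrients. No gene of the 8 was called, and edgeR called 0 of 15850 genes in all (0%), although 1420 had an unadjusted p under 0.05 (8.96%) and DESeq2 called 78 and limma 0. Kit had the smallest p of the 8 genes, with a log2 fold change of -0.74 (-1.47 to -0.01, edgeR adjusted p = 0.553). The other 7 had log2 fold changes of -0.08 (Fcer1a) to 0.86 (Cma1 and Tpsb2). All 8 genes overlapped between the groups, where 5.15% of all genes did not.

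**Figure D2:**
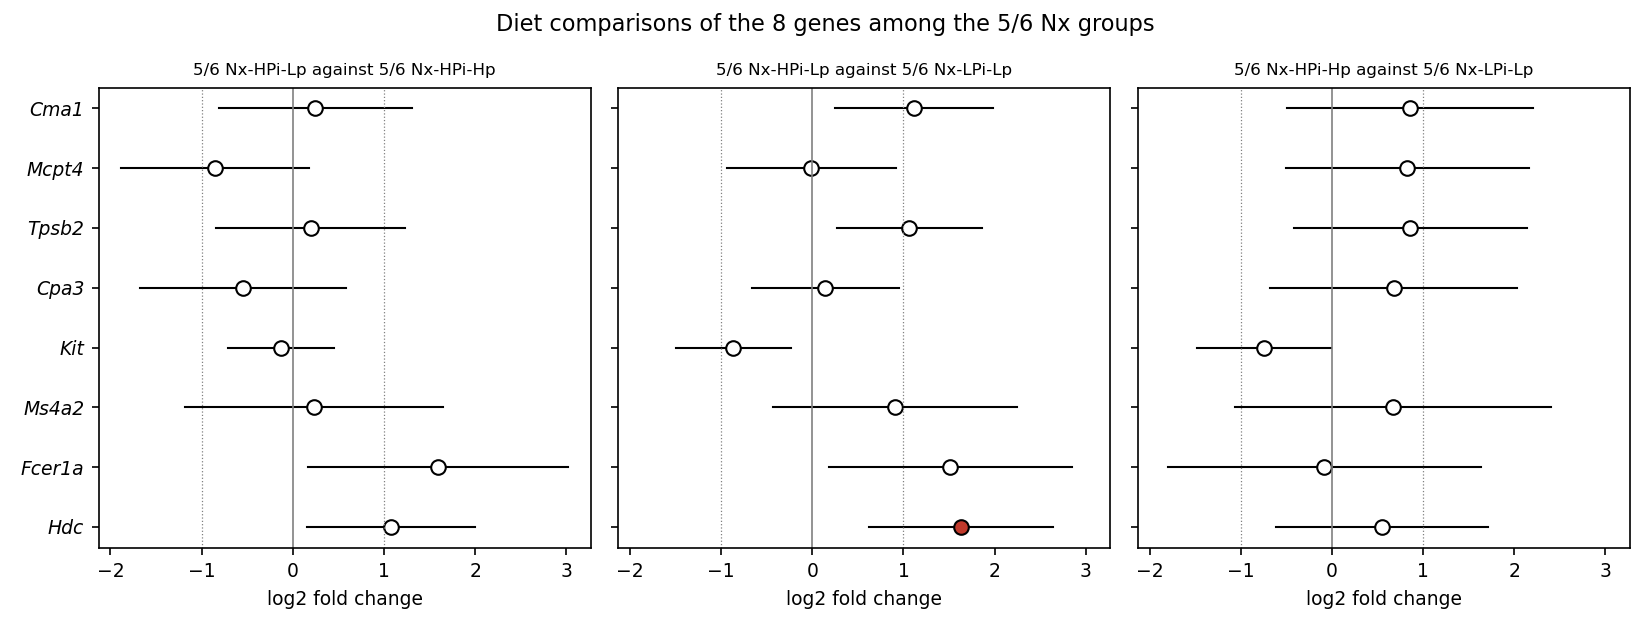
Log2 fold change (x axis) of each of the 8 genes (y axis) in the 3 diet comparisons, with points for the edgeR estimate (red where called, white otherwise), bars for the 95% interval and dotted lines at -1 and 1. Hdc in 5/6 Nx-HPi-Lp against 5/6 Nx-LPi-Lp, at 1.63, is the only gene called, and Mcpt4 and Cpa3 lie left of Cma1 and Tpsb2 in both comparisons of 5/6 Nx-HPi-Lp.

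The balance of Cma1 and Mcpt4 set the 5/6 Nx-HPi-Lp aortas apart from both other nephrectomy groups, between which no difference was found. The ratio of Cma1 to Mcpt4 within an aorta, as log2 of FPKM + 0.1, was 0.50, 0.32, 0.09 and 0.33 in 5/6 Nx-HPi-Lp replicates 1 to 4. It was -0.71, -1.06, -0.98 and -0.60 in 5/6 Nx-HPi-Hp and -0.54, -0.84, -1.03 and -0.78 in 5/6 Nx-LPi-Lp aortas. In all 4 5/6 Nx-HPi-Lp aortas Cma1 exceeded Mcpt4 (1.06 to 1.41 times), and in all 8 others of the nephrectomy groups Mcpt4 exceeded Cma1 (ratio 0.48 to 0.687). The Sham ratios, from far lower levels, were -1.42, -0.63, -1.02 and -0.68.

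The mean log2 ratio was 1.15 higher in 5/6 Nx-HPi-Lp than in 5/6 Nx-HPi-Hp and 1.11 higher than in 5/6 Nx-LPi-Lp. Both gave p = 0.0286 in an exact two-sided permutation test of 4 against 4, the smallest that the 70 splits can give, and 0.0429 after Benjamini-Hochberg adjustment over the 3 pairs. For 5/6 Nx-HPi-Hp against 5/6 Nx-LPi-Lp the difference was -0.04, less than the SD of either group (0.22 and 0.20). The means were 0.31 ± 0.17 in 5/6 Nx-HPi-Lp, -0.84 ± 0.22 in 5/6 Nx-HPi-Hp and -0.80 ± 0.20 in 5/6 Nx-LPi-Lp (SD, n = 4 each). A ratio within an aorta shows that the genes differed unequally, not which of them differed.

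Other pairs of proteases were compared after the data were seen. The log2 ratio of Tpsb2 to Mcpt4 was 1.08 higher in 5/6 Nx-HPi-Lp than in 5/6 Nx-HPi-Hp and 1.02 higher than in 5/6 Nx-LPi-Lp (exact permutation adjusted p = 0.0429 each). The ratio of Cma1 to Cpa3 was 1.00 higher than in 5/6 Nx-LPi-Lp (exact permutation p = 0.0286, adjusted 0.0857) and 0.74 higher than in 5/6 Nx-HPi-Hp (p = 0.0857, adjusted 0.129), and did not pass. As shares of the summed FPKM of the 4 protease genes, Cma1 held 30.6% ± 3.32 in 5/6 Nx-HPi-Lp aortas, against 22.1% ± 1.61 in 5/6 Nx-HPi-Hp and 21.8% ± 1.46 in 5/6 Nx-LPi-Lp (SD, n = 4). Mcpt4 held 24.8% ± 3.61 against 39.6% ± 3.55 and 38.1% ± 3.26, and its Sham share was 37.2% ± 1.48.

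**Figure D3:**
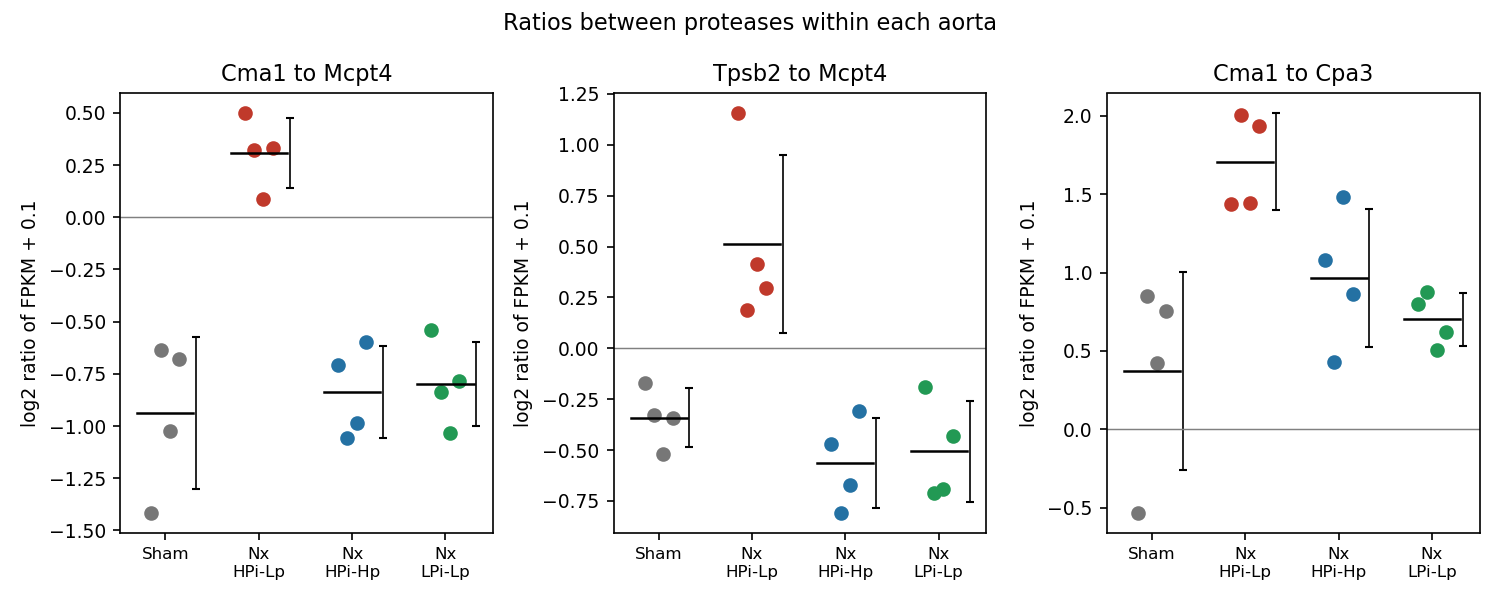
Log2 ratio of FPKM + 0.1 between proteases (y axis) in the 4 groups (x axis), in 1 panel per pair of genes, with 1 point per aorta, a line at the group mean, a bar of ± SD (n = 4) and a grey line at equal levels. The Cma1 to Mcpt4 ratio of the 5/6 Nx-HPi-Lp aortas lies from 0.09 to 0.50, above every other aorta.

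Neighboring genes took few of these reads. Of the 16 protease genes in the chromosome 14 cluster, Cma1 and Mcpt4 had 21908 counts over the 16 libraries and the other 14 had 285. Mcpt1 and Mcpt9 had no count in any library and Mcpt2, of mucosal mast cells, had 3. On chromosome 17, Tpsb2 had 11158 counts, the neighboring tryptase Tpsab1 589 and Tpsg1 172. Over runs of 50 bases, Cma1 shared none with Mcpt4 and Tpsb2 shared none with Tpsab1, while 5.48% of those of Mcpt4 were also in Cma2, a gene with 27 counts.

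Taken over all 4 groups, the 7 genes other than Kit varied together around their group means. With each value taken as log2(CPM + 1) minus its group mean over the 16 libraries, their 21 pairs had Pearson r of 0.468 to 0.976, with a median of 0.737. Cma1 and Mcpt4 had r = 0.976. Kit had r of -0.149 to 0.316 with the others. These are descriptions over mice that share library and depth, with no test.

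**Figure D4:**
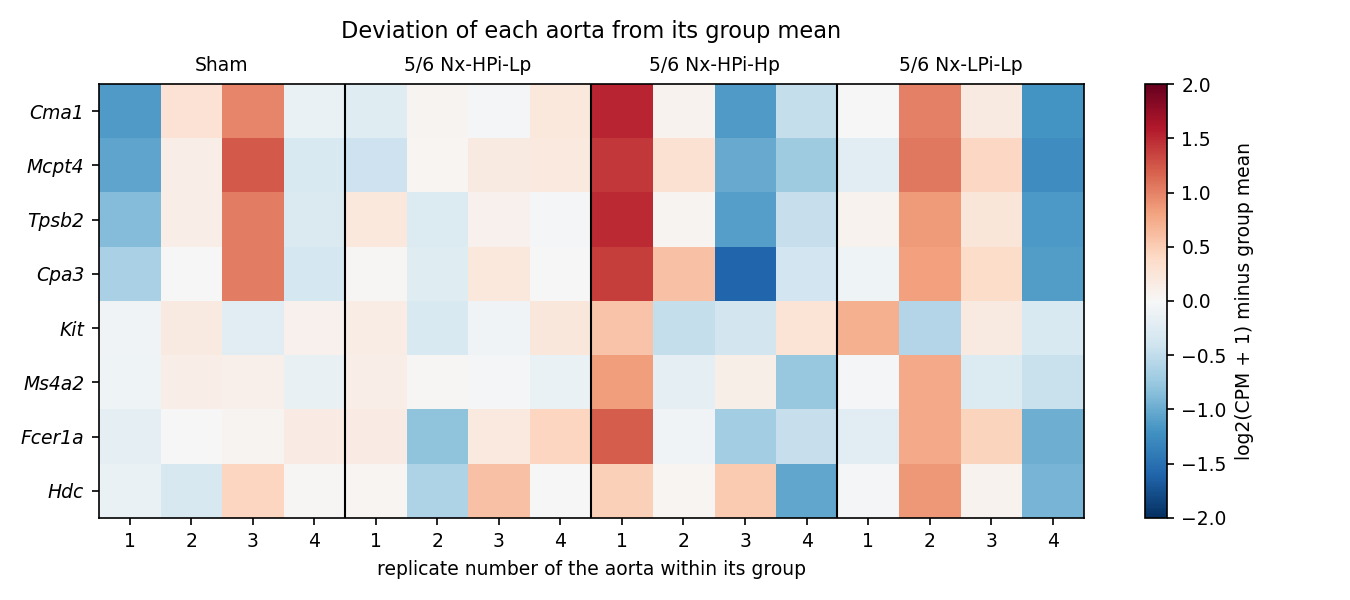
Deviation of log2(CPM + 1) from the group mean (color, red above and blue below) for each of the 8 genes (rows) and each aorta (columns, by group and replicate number). The columns of 5/6 Nx-HPi-Hp replicate 1, 5/6 Nx-LPi-Lp replicate 2 and Sham replicate 3 are red for the 4 proteases, with Kit apart in many columns.

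Averaged over the 8 genes, the deviation was highest in 5/6 Nx-HPi-Hp replicate 1, at 1.11, followed by 0.69 in 5/6 Nx-LPi-Lp replicate 2 and 0.58 in Sham replicate 3. It was lowest in 5/6 Nx-LPi-Lp replicate 4, at -0.92. In 5/6 Nx-HPi-Lp it stayed between -0.27 and 0.14. The same mean deviation was taken over each list of markers of other cells. Its r with that of the 8 genes was 0.674 for the basophil list, 0.494 for mesothelium, 0.424 for adipocytes, 0.351 for macrophages and 0.279 for neutrophils. For adventitial fibroblasts r was 0.19, for brown adipocytes 0.093, for smooth muscle -0.153 and for sympathetic neurons -0.167. Their part in the levels of these genes was not tested. The basophil list, Prss34, Cd200r3 and Mcpt8, summed to 0.0385 to 0.316 CPM in Sham and 0.927 to 2.79 in 5/6 Nx-HPi-Lp. It summed to 0.075 to 3.01 CPM in 5/6 Nx-HPi-Hp and 0.238 to 1.57 in 5/6 Nx-LPi-Lp. The basophil protease Mcpt8 had 17 counts over 6 of the 16 libraries. Only 1 of the 3 genes passed the count filter in each diet comparison of 5/6 Nx-HPi-Lp. Which cells made Prss34 and Cd200r3 was not tested, so the r of this list does not show that basophils varied with the 8 genes.

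Among 15016 other genes with a mean of at least 1 CPM, the nearest to the mean of the 8 by the same measure were Il1rl1 (r = 0.875), the IL-33 receptor, and Tpsab1 (0.85), a tryptase. Mast cells carry both, and Il1rl1 is found on other immune cells too. Elof1 (0.848), Retnla (0.836), Bmp4 (0.819), Padi2 (0.817), AC114990.3 (0.816), Mybphl (0.81), Mpp6 (0.794) and Pard6b (0.791) followed. Of these 10, 3 were called in diet comparisons, 6 were not, and Mybphl did not pass the count filter. Of all genes, 8.12% were called in 5/6 Nx-HPi-Lp against 5/6 Nx-HPi-Hp and 11.9% against 5/6 Nx-LPi-Lp. Retnla fell in 5/6 Nx-HPi-Lp against 5/6 Nx-HPi-Hp (log2 fold change -2.09, edgeR adjusted p = 0.00497) and against 5/6 Nx-LPi-Lp (-1.45, adjusted p = 0.00141), as did Bmp4 (-1.22 and -1.16), whereas Mpp6 rose (1.97 and 2.03). Other genes of mast cells did not all follow the 8. By the same measure r was 0.759 for Mrgprb2 (rank 16 of 15016) and 0.395 for Gata2 (rank 1349). It was 0.034 for Slc18a2 (rank 6798) and -0.001 for Rab27b (rank 7494).

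Other mast cell genes were drawn from a list of 26, of which 19 passed the filter in each diet comparison. Against 5/6 Nx-HPi-Hp, 3 rose in 5/6 Nx-HPi-Lp and none fell, and against 5/6 Nx-LPi-Lp 6 rose and none fell, beside 8.12% and 11.9% of all genes called in either direction, shares that also stand beside the lists that follow. These comparisons had medians of 0.60 and 1.01 on the log2 scale over the list, beside 0.01 and -0.02 over all genes. The genes that rose in both were Fcer1g, the signaling chain of Fc receptors (log2 fold change 1.60 and 2.24), Srgn, the granule proteoglycan core (1.35 and 1.48), and Alox5ap of leukotriene synthesis (1.76 and 2.49). Alox5, Ltc4s and the amine transporter Slc18a2 rose against 5/6 Nx-LPi-Lp (1.27, 1.01 and 3.17) and were not called against 5/6 Nx-HPi-Hp, a difference that was not tested. The Slc18a2 level of single 5/6 Nx-HPi-Lp aortas ran from 1.71 to 107 CPM. All but Slc18a2 are also made by macrophages or other leukocytes, and Slc18a2 is a gene of sympathetic neurons too. Against Sham, edgeR called 14 of 18 tested genes of this list higher in 5/6 Nx-HPi-Lp (median log2 fold change 2.26). It called 5 of 14 higher for HPi-Hp (0.73), 5 of 14 for LPi-Lp (0.33), and none lower in any group. The 8 genes, picked on this contrast, had medians of 3.77, 3.58 and 2.76. Mean Rab27b was 12.8 CPM in Sham and 6.32 to 8.48 CPM after nephrectomy. Mean Mitf was 18.5 CPM in Sham and 11.7 to 14.1 CPM after it.

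Of the markers of mast cells set beside the 8 genes, Tpsab1, Mrgprb2 and Gata2 did not pass in either comparison, nor did Il1rl1. Tpsab1 had log2 fold changes of 1.19 (edgeR adjusted p = 0.257) and 2.17 (0.069), Mrgprb2, the receptor for basic secretagogues, -0.12 (0.932) and 0.88 (0.328), and Il1rl1 0.06 (0.946) and 0.62 (0.235). Gata2, a factor of mast cells and endothelium, had 0.43 (0.299) and 0.04 (0.938). For 5/6 Nx-HPi-Hp against 5/6 Nx-LPi-Lp none of the 19 was called. Macrophage markers were all called higher in 5/6 Nx-HPi-Lp in both comparisons (6 of 6) and summed to 622 to 2190 CPM there, against 258 to 515 CPM and 182 to 311 CPM, and their part in these lists was not tested.

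Ligands that feed or draw mast cells made a list of 12, with 8 tested. The same 4 rose in 5/6 Nx-HPi-Lp against both nephrectomy groups and none fell. They included Il33, the alarmin that acts on Il1rl1 (log2 fold change 2.95 against 5/6 Nx-HPi-Hp and 3.16 against 5/6 Nx-LPi-Lp) and the chemokines Ccl2 (2.49 and 2.88) and Cxcl12 (1.96 in each). Kitl, the stem cell factor that binds Kit, had 0.61 (edgeR adjusted p = 0.0867) and 0.31 (0.288). Its mean level was 45.9 CPM in 5/6 Nx-HPi-Lp, 30.1 in 5/6 Nx-HPi-Hp, 37 in 5/6 Nx-LPi-Lp and 31.1 in Sham.

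Signaling genes below the IgE receptor and KIT numbered 17, all tested. In each comparison of 5/6 Nx-HPi-Lp, 8 rose and none fell: the kinases Lyn and Syk, the adaptors Lcp2 and Gab2, Vav1, the lipid kinase Pik3cd, and the phosphatases Inpp5d and Ptpn6. Their log2 fold changes ran from 1.03 (Pik3cd) to 1.96 (Inpp5d) against 5/6 Nx-HPi-Hp and from 1.10 (Gab2) to 2.93 (Lcp2) against 5/6 Nx-LPi-Lp. Leukocytes in general use these genes. In Sham, 7 of the 8 had means of 2.3 to 15.3 CPM, below their 5/6 Nx-HPi-Lp means of 11.7 to 38.9 CPM, whereas Gab2 measured 50.2 CPM in Sham and 54.9 CPM in 5/6 Nx-HPi-Lp. Of 11 receptors and breakdown enzymes for mast cell mediators, 7 and 6 were tested, and Cysltr1, a leukotriene receptor, rose against 5/6 Nx-LPi-Lp (1.88). Of 7 angiotensin genes, 5 and 6 were tested, and Agt, the precursor from which angiotensin I is cut, rose against 5/6 Nx-LPi-Lp (2.78). None of these lists had a gene called in 5/6 Nx-HPi-Hp against 5/6 Nx-LPi-Lp.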

How the data were processed

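RNA of 16 aortas was sequenced as poly-A libraries, 1 per mouse, and groups were taken from the sample titles. Per the labels, reads were counted per gene with featureCounts 1.5.0-p3 on mm10. The authors deposited raw read counts for 54532 genes, and they also deposited FPKM values, which were already scaled between libraries. Strand and multi-mapping options are not given in the sources used here. No pair of libraries of a group was a copy (lowest chi-square per gene 21.9).

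From the counts, CPM were computed after TMM scaling of the 16 libraries together. Tests were run on counts with the quasi-likelihood method of edgeR 4.0.16 in R 4.3.3, on the 8 libraries of each comparison after filterByExpr and TMM, and p-values were adjusted by Benjamini-Hochberg over every gene tested. Calls needed an adjusted p up to 0.05 and an absolute log2 fold change from 1. Ratios of FPKM + 0.1 were tested by exact permutation. On simulated data built on 16253 genes of 5/6 Nx-HPi-Lp against 5/6 Nx-LPi-Lp, edgeR called 21.1%, 76.5% and 80.3% of genes changed 2-, 4- and 8-fold, with 3 false calls among 16053 unchanged genes.

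The 8 genes and all lists were chosen with earlier results of these data known. The rule named the 8 genes, every gene of a list called in a diet comparison (otherwise the pair with the highest mean level) and the 10 genes with the most like pattern, and some genes of the lists are not reported here. The tests were repeated with DESeq2 1.42.0, with limma 3.58.1 on log2 FPKM with 1 or 0.1 added (mean FPKM over 0.5), with RLE or total-count scaling, without the count filter or with a minimum of 10 counts, in 1 fit of all 16 libraries, with a block on replicate number, without the fold limit, without mitochondrial genes, and without each library in turn. Figures were drawn with Python 3.11.15 and matplotlib 3.10.9.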

Additional observations from a re-analysis of the deposited data

How the results depend on the processing

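Of the fits of single genes, 410 of 446 kept direction and side of the threshold, 21 reversed, 9 passed newly and 6 no longer passed. The number of the 8 genes called in 5/6 Nx-HPi-Lp against 5/6 Nx-LPi-Lp, 1, became 4 with DESeq2, 3 with no count filter and 0 with limma on log2(FPKM + 1), where Ms4a2 had no value, and 0 to 4 with a library left out; against 5/6 Nx-HPi-Hp it was 0 to 1 with a library left out. All genes called in 5/6 Nx-HPi-Lp against 5/6 Nx-HPi-Hp, 1315, became 2094 with DESeq2, 783 with limma on log2(FPKM + 1), 2011 with all 16 libraries in one fit, 2113 with no fold threshold and 638 to 1558 with a library left out. Against 5/6 Nx-LPi-Lp, 1931 became 1068 with limma, 3262 with no fold threshold and 1278 to 2085 with a library left out. For 5/6 Nx-HPi-Hp against 5/6 Nx-LPi-Lp, 0 became 78 with DESeq2, 12 with no count filter and 0 to 1 with a library left out.

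The replicate numbers do not pair the mice: same-numbered samples had correlations of -0.276 to 0.536, over 0.1 in 4 of 24 pairs. With a block on the number, 0 of the 8 genes and 371, 1271 and 10 of all genes were called in the same order of comparisons, and the Cma1 to Mcpt4 differences of 1.15 and 1.11 had an adjusted p of 0.188, the smallest a blocked exact permutation test of 4 pairs allows being 0.125 before adjustment.

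The median log2 fold change against Sham ranged over left-out libraries from 3.49 to 4.19 in 5/6 Nx-HPi-Lp and from 2.74 to 4.01 in 5/6 Nx-HPi-Hp. The Cma1 to Mcpt4 difference for 5/6 Nx-HPi-Hp against 5/6 Nx-LPi-Lp, -0.04, ranged from -0.12 to 0.0485 and was 0.26 with Cma1 to Cpa3, where the other differences were 0.74 and 1.00. With a library left out, log2 fold changes against 5/6 Nx-HPi-Hp ranged for Cma1 from -0.0486 to 1.04, Tpsb2 -0.0922 to 0.97, Mcpt4 -1.13 to -0.18, Cpa3 -0.88 to 0.0577, Kit -0.30 to 0.0885 and Ms4a2 -0.11 to 0.91. Against 5/6 Nx-LPi-Lp they ranged for Mcpt4 from -0.29 to 0.41 and Cpa3 from -0.12 to 0.46, and between the other groups for Ms4a2 from -0.0155 to 1.49 and Fcer1a from -1.11 to 0.37. Mcpt4 against 5/6 Nx-LPi-Lp was 0.0446 with total counts as scaling and 0.0401 with mitochondrial genes left out, 0.20 and 0.21 with limma on log2(FPKM + 1) and log2(FPKM + 0.1), and 0.18 with the replicate block. The cause was not tested. Genes near 3 counts, as Ms4a2 and Fcer1a in Sham, are limited by depth.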

Other observations

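Lists of other cell types gave these counts in the diet comparisons, and their part in the levels of the mast cell genes was not tested. Neutrophil genes S100a8, S100a9, Retnlg and Csf3r (4 of the 4 tested of 5) rose in 5/6 Nx-HPi-Lp against both other nephrectomy groups, as did all 6 macrophage genes (Adgre1, Cd68, Csf1r, Lyz2, Mrc1 and C1qa) and 3 of 5 adventitial fibroblast genes (Pdgfra, Dpt and Col1a1). Neutrophil markers summed to 18 to 67.4 CPM in 5/6 Nx-HPi-Lp and at most 8.87 CPM elsewhere, and the untested Ly6g had 0 counts in 5/6 Nx-HPi-Lp. Smooth muscle genes fell, 4 of 5 against 5/6 Nx-HPi-Hp (Myh11, Tagln, Cnn1 and Lmod1) and 5 of 5 against 5/6 Nx-LPi-Lp (with Acta2).

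Against 5/6 Nx-LPi-Lp, the adipocyte gene Cfd rose by 2.63 on the log2 scale, 2 of 6 sympathetic neuron genes rose, among them Tubb3 by 3.77, and Cidea of brown fat fell by 1.54. Ano1, from the list of interstitial cells of Cajal, fell by 1.22 against 5/6 Nx-HPi-Hp, and the cells that made it were not identified. Of the genes that passed the count filter, none was called by edgeR in a diet comparison in the lists of basophils (Prss34 and Cd200r3 with means of 1.51 and 0.159 CPM in 5/6 Nx-HPi-Lp), eosinophils (Ear2 1.18 and Prg2 0.513 CPM), Schwann cells (Mbp 63 CPM), melanocytes (Pmel 1.57 and Dct 0.509 CPM), endothelium (Pecam1 293 and Vwf 159 CPM), mesothelium (Upk3b 23.7 and Msln 36.1 CPM), thymocytes and T cells (Cd8b1 0.505 and Rag1 0.159 CPM) and B cells (Cd79a 4.35 CPM). In the comparisons of 5/6 Nx-HPi-Lp, first with 5/6 Nx-HPi-Hp and then with 5/6 Nx-LPi-Lp, that filter left 1 and 1 of 3 basophil, 1 and 1 of 5 eosinophil, 1 and 2 of 5 melanocyte and 2 and 2 of 5 T cell genes to test. For 5/6 Nx-HPi-Hp against 5/6 Nx-LPi-Lp no list had a gene called.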
